A study of Mus musculus with 4 samples.

Results

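The genes described here encode the subunits of the mitochondrial respiratory chain (complexes I to IV) and of ATP synthase (complex V), together with factors that assemble them and isoforms of single tissues. They were taken as every probe set of the array whose annotation gives 1 gene symbol that starts with Nduf, Sdha, Sdhb, Sdhc, Sdhd, Uqcr or Atp5, or with Cox followed by 4, 5, 6, 7 or 8, leaving out Cox6a2. This gave 118 of 28853 probe sets and 92 of the 19938 genes with a symbol of their own. The group was chosen by the values in Bcl11a-/- against WT MPPs, in which it was already known to be low, so its values in that comparison are a description.

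Bcl11a is a zinc finger transcription factor required for lymphoid development, and the study asked which genes depend on it in early bone marrow progenitors. Recipients of the B6.SJL strain were given a lethal dose of 1200 rad and then 4e6 cells of fetal liver, WT or Bcl11a-/-. After 4 weeks, donor-derived multipotent progenitors (MPPs) and granulocyte-macrophage progenitors (GMPs) were sorted from the bone marrow of both kinds of chimera, which gave 4 groups that share the irradiated host and the transfer. According to the study, MPPs were taken as the CD150-negative part of the LSK fraction, and IL-7R and Flt3 were left out of the gates. The deletion was carried by every donor cell through development, and sorted cells were pooled by donor genotype. Ages of the hosts and the number of chimeras in a pool were not given in the sources used here. Each group was measured once, on 1 one-colour array, and the values are log2 signals after RMA. No test, error or interval can be had with 1 array per condition, so differences in log2 signal are given as descriptions of these 4 arrays. A 2-fold difference, the threshold of the study, is 1 on this scale.

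Bcl11a itself read 8.60 (WT) and 7.77 (Bcl11a-/-) in GMPs and 9.89 (WT) and 8.64 (Bcl11a-/-) in MPPs, lower in the knockout of both populations but not near the bottom of the scale. According to the study, the targeted deletion removes the first exon of the gene. Which exons this probe set reads was not examined here. Over all 28853 probe sets the median signal lay between 5.50 and 5.70 on the 4 arrays, and the SD over probe sets was 2.30 (WT) and 2.28 (knockout) for GMPs and 2.21 (WT) and 2.10 (knockout) for MPPs, so the spread of signals was narrowest on the knockout MPP array. Of the 1324 control rows, 20.1% differed by over 2-fold between the MPP arrays and 2.79% between the GMP arrays. Among the 4713 probe sets with a mean log2 signal of at least 8, where 100 of the 118 members lie, the median difference between Bcl11a-/- and WT MPPs was -0.16, against 0.05 over all probe sets, and when the 2 arrays were quantile normalized anew it was 0.02. Of the 8 GMP markers, 4 (Elane, Prtn3, Ctsg and Ms4a3) were over 2-fold lower in the knockout MPPs and Cebpe (0.87) and Fcgr3 (0.47) were higher, with a list median of -1.40 and a log2 summed signal of 12.1 against 13.4. All 7 B lineage markers measured were lower there too (summed log2 signal 8.61 against 11.9), and the 6 erythroid markers summed to 12.8 in Bcl11a-/- against 10.9 in WT GMPs. The 7 late neutrophil markers summed to 14.6 in Bcl11a-/- against 14.5 in WT MPPs. Their median difference was 0.03, or 0.46 when the MPP arrays were quantile normalized anew. None of them was over 2-fold lower, and Mmp8 was over 2-fold higher (8.95 in WT and 10.49, a difference of 1.54). The 6 MPP markers measured, Slamf1 among them, had a list median of 0.48. Flt3 was the one that was lower in the knockout MPPs (9.31 in WT and 7.71), whereas Cd34 (0.48), Hlf (0.21) and Kit (0.13) were higher. Mecom was higher too, from 5.07 to 6.41 and from 4.97 to 5.49 by 2 probe sets (1.34 and 0.52). Slamf1 encodes CD150, which these MPPs were sorted to lack, and was listed as a marker of low level. It read 4.34 in WT and 4.87 in the knockout MPPs (0.53). Slamf1 and the second Mecom probe set lay below the median signal of all probe sets on both MPP arrays. The part that the controls' differences, this shift of bright probe sets, or a changed mix of cells, has in the values that follow was not tested, and in sorted pools fewer cells of a type and less RNA per cell cannot be told apart.

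The respiratory chain passes electrons from NADH (complex I) and succinate (complex II) through complex III to oxygen at complex IV. Complexes I, III and IV pump protons across the inner mitochondrial membrane, and ATP synthase lets them flow back through its rotating c ring, which drives the catalytic F1 head. Most subunits are nuclear genes and are the ones described here, whereas a small set, including the proton-pumping subunits of complex I and the catalytic centre of complex IV, is encoded in mitochondrial DNA. The name core is used here for a set of 21 genes: the nuclear subunits of complex I at the heart of the matrix arm, the 4 subunits of complex II, the Rieske protein of complex III, and the F1 head with its central stalk, the c ring, Atp5o and Atp5pb of ATP synthase. It includes subunits without a redox centre or catalytic site, such as those of the c ring and the stalks, and the other structural subunits, Uqcrc1 among them, are called accessory. Blood stem cells and early progenitors are known to rely less on respiration than the cells they give rise to.

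In MPPs the group was lower in the Bcl11a-/- sample, unevenly so. The median difference of the 118 probe sets was -0.39, with 91 below 0, and single values ran from -3.85 (Ndufs5) to 0.64 (Uqcrb). Over 2-fold lower were 27 probe sets of 21 genes, beside 2.51% of all probe sets. None was over 2-fold higher as deposited, beside 1.39% of all, and 1 or 2 were when arrays were quantile normalized anew. Among probe sets of mean log2 signal at least 8 the count was 27 of 100, beside 9.04% of all such probe sets. These values chose the group, so no more is read from the counts. The probe sets just past the 2-fold line were those of Ndufs4 (-1.11), Atp5h (-1.11) and Atp5a1 (-1.01), and just short of it lay Ndufb9 (-0.96), Uqcrc2 (-0.96) and Ndufs8 (-0.93). The Bcl11a-/- MPP array held the lowest of the 4 values for 64 of the 92 genes, and the WT GMP array the highest for 48. The count depended on the scaling: it was 29 after centring on the median of all probe sets, 23 after a lowess fit on signal and 20 when the arrays were quantile normalized anew, and the group's median was then -0.44, -0.28 and -0.17.

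**Figure D1:**
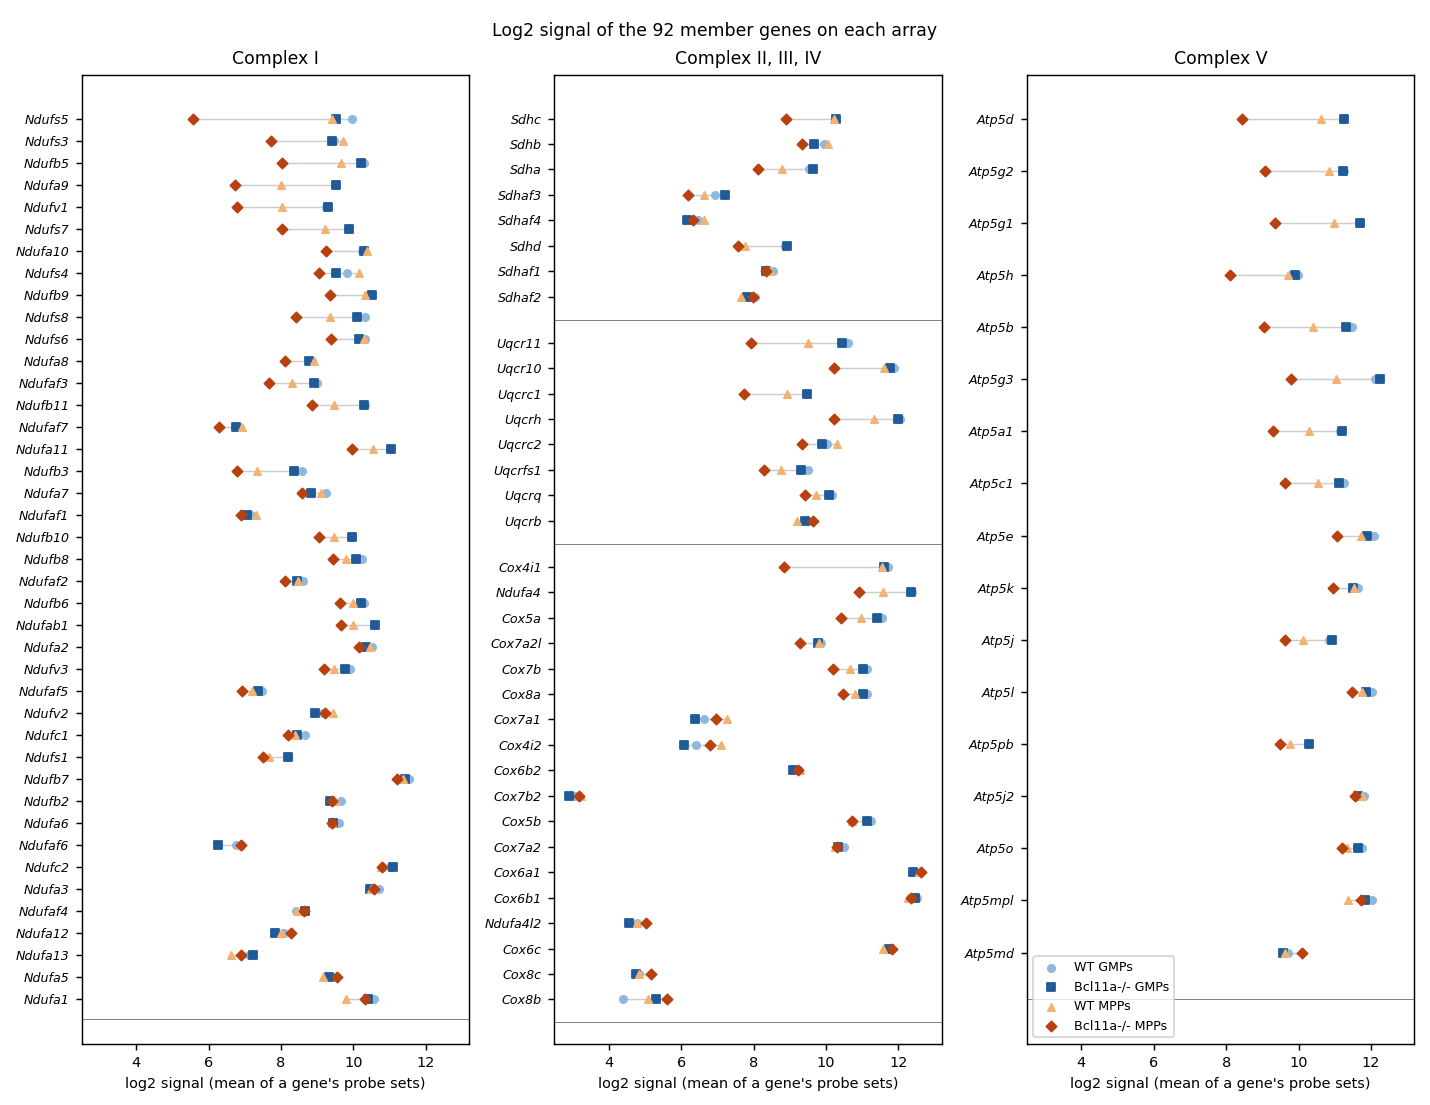
Log2 signal of each of the 92 genes (rows, a gene's probe sets averaged) on the 4 arrays, in 3 panels by complex and ordered within a complex by the MPP difference; grey lines span the 4 values of a gene. The Bcl11a-/- MPP value (diamonds) lay lowest for 64 of the 92 genes, and the GMP values (circles and squares) lay close together in nearly every row.

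Both genotypes gave nearly the same values in GMPs. The median difference there was -0.10, with 90 of 118 probe sets below 0, and no member was over 2-fold lower, beside 0.350% of all probe sets, or over 2-fold higher, beside 0.319%. At 1.5-fold there were 1 lower and 1 higher of the 118, beside 4.05% of all probe sets in either direction. These were a probe set of Sdhaf4, an assembly factor of complex II (-0.68), and Cox8b, a heart and muscle isoform of complex IV (0.91, from a log2 signal of 4.39 to 5.30). The lowest and highest differences of the other complexes were small: Ndufaf6 (-0.47) and Ndufaf4 (0.26) for complex I, Uqcr11 (-0.22) and Uqcrc1 (0.04) for complex III, and Atp5md (-0.18) and Atp5g3 (0.14) for complex V. Complex II ranged up to 0.28 (Sdhaf3), and Cox4i2 (-0.33) was the lowest of complex IV. No array enters both genotype comparisons, though both populations came from the same bone marrow.

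**Figure D2:**
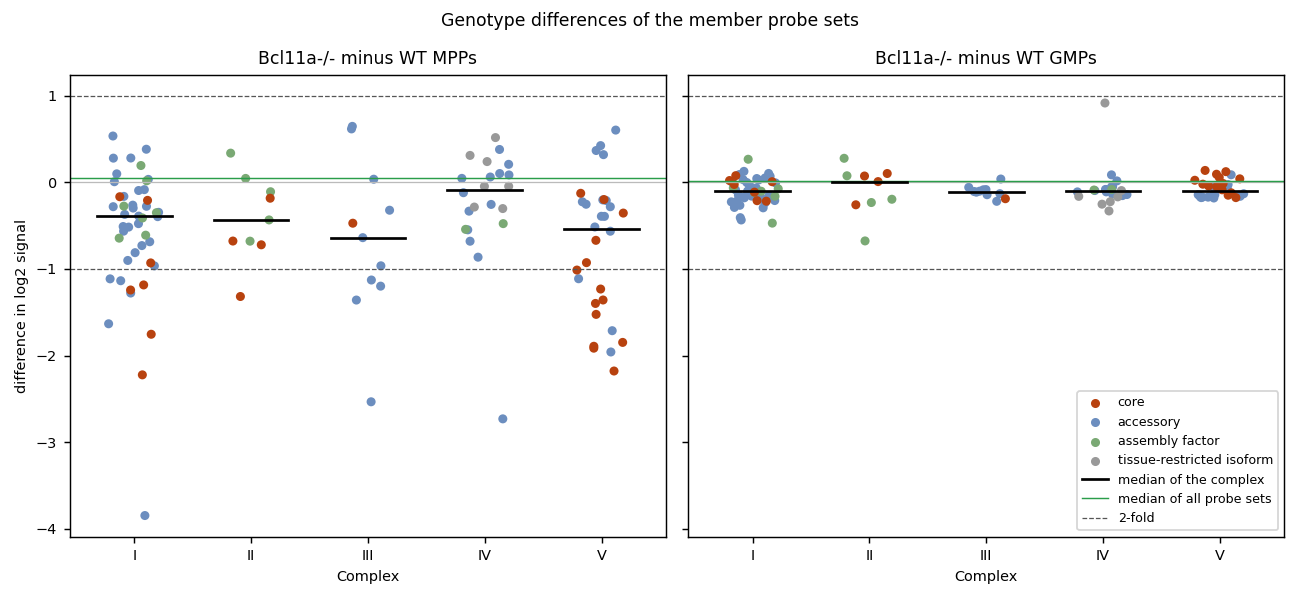
Differences in log2 signal between Bcl11a-/- and WT MPPs (left) and GMPs (right) for the 118 probe sets, grouped by complex and coloured by kind of subunit; black bars are medians of a complex, the green line is the median of all probe sets and dashed lines mark 2-fold. In MPPs 27 probe sets lay below the lower dashed line and in GMPs none did; the MPP median of complex IV (-0.08) turned to 0.12 when the arrays were quantile normalized anew.

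Over all complexes together, the genes called core had a lower median in MPPs than those called accessory, and ATP synthase weighed in this. By gene, this order held in complex I, with medians of -1.06 (core, 3 of 6 over 2-fold lower) and -0.36 (accessory, 5 of 28). It also held in complex V, at -1.12 (core, 6 of 10) and -0.29 (accessory, 1 of 7), but not in complex III. As deposited, 14 of 26 core probe sets were over 2-fold lower (6 of them of the c ring and 1 of Atp5d). All 26 were below 0, with a median of -1.10. Of 71 accessory probe sets 13 were over 2-fold lower, with a median of -0.33. By gene the counts were 10 of 21 and 11 of 52. Complex IV has no gene called core, and complex II none called accessory. The order was reversed in complex III, with Uqcrfs1 (core) at -0.47 and an accessory median of -1.13 by gene. Within complex V it was reversed in the peripheral stalk, with Atp5o (-0.13) and Atp5pb (-0.28) core, and Atp5h (-1.59) and Atp5j (-0.52) accessory. None of the 14 probe sets of assembly factors and none of the 7 of tissue-restricted isoforms was over 2-fold lower, with medians of -0.38 and -0.05, and the second median turned to 0.14 when the arrays were quantile normalized anew. The core count was 12 to 14 over the 4 other scalings and the core median -1.15 to -0.84. The accessory count was then 8 to 15 and the accessory median -0.38 to -0.08. Of the core genes, Atp5o turned to 0.02 after lowess. When the MPP arrays were quantile normalized anew it was 0.31, and Atp5pb was -0.01. In GMPs the core median was -0.02, and it turned to 0.03 when quantile normalized anew. Several of the isoforms, which replace the common subunit in tissues such as muscle, lung or testis, read low on all arrays: Cox7b2 lay between 2.89 and 3.23, Cox8c between 4.74 and 5.16, and Ndufa4l2 between 4.55 and 5.02.

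Complex I held 46 probe sets of 41 genes, 9 of them over 2-fold lower in Bcl11a-/- MPPs, with a median of -0.39. The lowest member of all was Ndufs5, an accessory subunit of the membrane arm that faces the intermembrane space. It read 9.96 (WT) and 9.53 (knockout) in GMPs and 9.42 (WT) and 5.57 (knockout) in MPPs, 14.4-fold lower in the last. Only the Bcl11a-/- MPP array stood apart. A second probe set, assigned to Ndufs5 and its pseudogene Ndufs5-ps and therefore outside the group, read 9.99, 9.87, 9.66 and 8.74 on the same arrays, a difference of -0.92, so the size of the difference was not the same by the 2 probe sets, while the lowest array was.

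The core subunits of complex I that are nuclear genes form, with the flavin and the iron-sulfur clusters that most of them carry, the path along which electrons travel from NADH to ubiquinone, and 6 such genes, with 7 probe sets, are among the members. Ndufs3, part of the matrix arm near the ubiquinone site, read 9.61, 9.61, 9.81 and 7.59 (GMPs, WT then knockout, and MPPs, WT then knockout, the order used from here on) by one probe set. By the other it read 9.30, 9.19, 9.59 and 7.84, so both were low on the Bcl11a-/- MPP array and nowhere else, by -2.22 and -1.75. Ndufv1, which binds NADH and the flavin, read 9.23, 9.31, 8.04 and 6.80, lower in MPPs than in GMPs in both genotypes and lowest in the knockout (difference between the MPPs -1.24). Ndufs7, which holds the last cluster before ubiquinone, read 9.85, 9.87, 9.21 and 8.03 (-1.18). Ndufs8, which also holds iron-sulfur clusters, read 10.32, 10.11, 9.36 and 8.43 (-0.93). The remaining pair differed little between the MPPs, Ndufv2 by -0.21 and Ndufs1, the largest subunit, by -0.17. Each of these signs held under the 4 other scalings, and the count over 2-fold stayed at 4 of the 7 core probe sets.

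Of 28 accessory genes of complex I, 5 were over 2-fold lower. Next to Ndufs5 these were Ndufb5 of the membrane arm (10.30, 10.21, 9.65 and 8.02), Ndufa9, which lies beside the ubiquinone channel (9.48, 9.51, 8.01 and 6.73), Ndufa10 (10.23, 10.28, 10.38 and 9.25) and Ndufs4 (9.82, 9.53, 10.17 and 9.05). Ndufa10 and Ndufs4 had their highest value of the 4 in WT MPPs, whereas Ndufa9 and Ndufb5 were already lower there than in GMPs. Ndufa10 and Ndufs4 were short of 2-fold when the arrays were quantile normalized anew, and Ndufs4 after lowess as well. At the other end, Ndufa1 was higher in Bcl11a-/- MPPs (10.58, 10.41, 9.79 and 10.32, a difference of 0.53), as were Ndufa5 (0.38), Ndufa13 (0.28) and Ndufa12 (0.28). The 7 assembly factors, which bring the arms of the complex together and stay out of the finished enzyme, ranged from -0.65 (Ndufaf3) to 0.19 (Ndufaf4).

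Complex II, succinate dehydrogenase, is the only complex of the chain that is wholly nuclear and also a part of the TCA cycle. Its 9 probe sets had a median difference of -0.43 in MPPs. Sdhc, a membrane anchor that binds ubiquinone and haem, read 10.28, 10.29, 10.21 and 8.90 and was the single member over 2-fold lower (-1.32). Sdhb, the iron-sulfur subunit, read 9.94, 9.68, 10.07 and 9.34 (-0.72), and the flavin subunit Sdha 9.53, 9.63, 8.79 and 8.11 (-0.68). Both were lowest in Bcl11a-/- MPPs. The other anchor, Sdhd, was set apart by cell type: it read 8.86 and 8.93 in GMPs and 7.75 and 7.57 in MPPs, so that the genotypes differed by -0.18. The 4 assembly factors held no member over 2-fold; Sdhaf2, which helps insert the flavin, was the highest (0.34), and Sdhaf4 was split between its probe sets, at -0.68 and 0.04 in MPPs, with log2 signals of 5.34 and 5.38 in the MPPs for the second.

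Complex III, which passes electrons from ubiquinol to cytochrome c, had the lowest median of the 5 complexes as deposited, -0.64 over 11 probe sets of 8 genes (-0.44 when the MPP arrays were quantile normalized anew, equal to that of complex II), and 4 of its genes were over 2-fold lower. Uqcr11, the smallest subunit, was measured by 2 probe sets that differed: one read 10.64, 10.42, 9.28 and 6.75 (-2.53) and the other 10.56, 10.44, 9.72 and 9.08 (-0.64). It was the 1 gene of the 18 with several probe sets whose MPP differences lay over 1 apart (1.89, against a median of 0.34 for the 18). The others over 2-fold were Uqcr10 (11.88, 11.78, 11.59 and 10.23), Uqcrc1, a core protein of the matrix domain (9.44, 9.48, 8.94 and 7.74), and Uqcrh, the hinge protein at the cytochrome c site (12.06, 12.00, 11.34 and 10.21). Uqcrc2, the partner of Uqcrc1, followed at -0.96, and the Rieske iron-sulfur protein Uqcrfs1, the redox subunit of this complex among the members, read 9.50, 9.31, 8.75 and 8.28 (-0.47). When the arrays were quantile normalized anew, Uqcr10 and Uqcrh were short of 2-fold and 2 probe sets of the complex passed it. Uqcrh was short of it after lowess too, and Uqcr11 by its brighter probe set alone. Uqcrb, which lies at the ubiquinone site, went the other way with differences of 0.64, 0.62 and 0.03 by its 3 probe sets.

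Complex IV, cytochrome c oxidase, had the median closest to 0, -0.08 over 22 probe sets, 0.12 when quantile normalized anew, and a single member over 2-fold lower. These 22 include 7 tissue-restricted isoforms, and the median was -0.27 for probe sets that reached 6 on one of the MPP arrays, -0.19 for those of mean signal at least 8 and -0.18 over the 10 nuclear genes of common subunits. The member over 2-fold was Cox4i1, the largest of its nuclear subunits and the common form outside the lung, which read 11.70, 11.61, 11.56 and 8.83, a 6.63-fold lower signal in Bcl11a-/- MPPs. The other 3 values lay close together. Cox7b gave differences of -0.86 and -0.12 by its 2 probe sets. Ndufa4, named for complex I but known as a part of complex IV, followed at -0.68, and Cox5a, a matrix subunit that works with Cox4i1, at -0.55. Cox6a1 read 12.38, 12.40, 12.57 and 12.63 and Cox6b1 12.51, 12.46, 12.27 and 12.35, differences of 0.06 and 0.08. Cox6c differed by 0.38 and 0.10, and Cox7a2 by 0.04, which was 0.00 after median centring. The highest of the complex was Cox8b (5.08 in WT and 5.60 in Bcl11a-/- MPPs), a dim probe set. The 3 probe sets shared by Cox7c and a second locus, Gm12338, lay outside the group and differed by -0.09 to -0.07 in MPPs. For complex I, 2 probe sets shared by Ndufb4 and Ndufb4b were likewise left out (0.09 and 0.11).

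ATP synthase had 12 of 30 probe sets over 2-fold lower, several of them repeat measurements of Atp5g1, Atp5g2 and Atp5h. By gene this was 7 of 17, beside 8 of 41 for complex I and 4 of 8 for complex III, and the median of the probe sets was -0.54 in MPPs (-0.20 when quantile normalized anew). The 6 probe sets of the c ring were all over 2-fold lower (median -1.69; 5 of 6 when quantile normalized anew). The ring is built from copies of 1 small protein, encoded by 3 genes whose protein products differ only in the mitochondrial import sequence. Atp5g2 read 11.20, 11.24, 10.76 and 8.85 by its lowest probe set, with differences of -1.91, -1.89 and -1.52 by the 3. Atp5g1 read 12.03, 11.98, 11.26 and 9.41 by one of its probe sets (-1.85) and differed by -1.40 by the other, and Atp5g3 read 12.11, 12.25, 11.03 and 9.80 (-1.23). Probe sets of such similar genes may share transcripts, so the 3 are not fully separate measurements. In GMPs the 6 differed by -0.05 to 0.14.

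All 5 genes of the catalytic F1 head were lower in Bcl11a-/- MPPs, 3 of them by over 2-fold (2 when quantile normalized anew or after lowess). Atp5d, part of the central stalk that turns with the c ring, read 11.23, 11.25, 10.63 and 8.45 (-2.18). Atp5b, which carries the catalytic sites, read 11.47, 11.32, 10.40 and 9.04 (-1.36), and Atp5a1, with which it alternates in the head, 11.15, 11.20, 10.29 and 9.28 (-1.01). For the catalytic pair the WT MPP value lay between those of the GMPs and the Bcl11a-/- MPPs. The other stalk subunits, Atp5c1 and Atp5e, differed by -0.93 and -0.67.

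The peripheral stalk, which holds the head still, was split by gene. The 3 probe sets of Atp5h were over 2-fold lower, at -1.96, -1.71 and -1.11, the first of them 8.96, 8.92, 8.62 and 6.66, whereas Atp5j differed by -0.52, Atp5pb by -0.36 and -0.20, and Atp5o by -0.13. Of the 12 probe sets of small membrane subunits, which shape the enzyme dimers and the cristae, none was over 2-fold lower, and their median of -0.22 turned to 0.20 when quantile normalized anew. The 6 probe sets of Atp5l lay between -0.39 and -0.20, Atp5k at -0.57 and Atp5j2 at -0.21. Atp5md was higher in Bcl11a-/- MPPs by all of its 3 probe sets, at 0.60, 0.42 and 0.32, and so was Atp5mpl at 0.37. The division into these parts of the enzyme was made after the values had been seen.

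**Figure D3:**
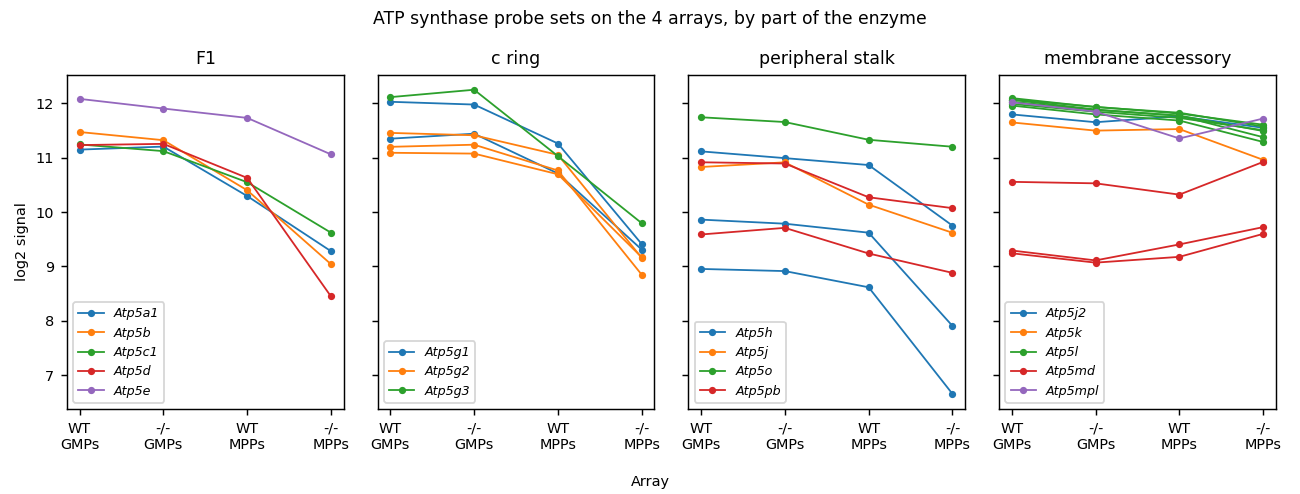
Log2 signal of the 30 ATP synthase probe sets on the 4 arrays, in 4 panels by part of the enzyme; each line joins the 4 values of 1 probe set and colours mark genes within a panel. The 6 c ring probe sets were low together on the Bcl11a-/- MPP array, as were the 3 of Atp5h. The membrane accessory subunits differed between the MPP arrays in both directions, from -0.57 (Atp5k) to 0.60 (Atp5md) as deposited (median -0.22, or 0.20 when quantile normalized anew).

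The study's other axis compares MPPs with GMPs. The WT MPP minus WT GMP comparison uses one array of each genotype comparison, and the Bcl11a-/- one the others, so they are set side by side. In WT, the median of the 118 probe sets was -0.29, with 95 below 0 and 8 over 2-fold lower, beside 2.67% of all probe sets (7 of 100 members of mean log2 signal at least 8, beside 7.41%). None was over 2-fold higher, beside 1.55%. The 8 were Ndufa9 (-1.47), Uqcr11 (-1.35, one of 2 probe sets), Ndufb11 (-1.26, one of 2), Ndufb3 (-1.24), Ndufv1 (-1.19), Sdhd (-1.10), Atp5g3 (-1.08) and Atp5b (-1.07). They include the NADH-binding subunit of complex I, an anchor of complex II and a catalytic subunit of ATP synthase. Quantile normalized anew, 5 probe sets were over 2-fold lower and the median was -0.11. The bright members' share of 7% lies close to that of all bright probe sets.

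The Bcl11a-/- comparison uses the array on which the members were chosen to be low, so its counts inherit that choice and are a description. There, MPPs were over 2-fold lower than GMPs for 42 of the 118 probe sets (35 genes), beside 5.91% of all, and for 40 of the 100 bright ones, beside 20.2%. None was over 2-fold higher as deposited, beside 3.08%, and 2 or 3 were when quantile normalized anew. The median was -0.56, and -0.19 with 28 probe sets over 2-fold when that pair of arrays was quantile normalized anew. The lowest were Ndufs5 (-3.96), Uqcr11 (-3.67 and -1.36), Atp5d (-2.80), Cox4i1 (-2.78), Ndufa9 (-2.78), Atp5g1 (-2.56 and -2.13), Ndufv1 (-2.51) and Atp5g3 (-2.45). The list held all 3 c ring genes, 4 of the 5 F1 genes (Atp5c1 at -1.50 among them), Atp5h and Atp5j of the stalk, and Sdha, Sdhc and Sdhd of complex II. From complex I it also held Ndufb5, Ndufb11, Ndufs7, Ndufs8, Ndufb3, Ndufs3, Ndufa11, Ndufaf3, Ndufb9, Ndufa10 and Ndufab1, between -2.19 and -1.02. From complex II the assembly factor Sdhaf3 (-1.01) was just past the line, from complex III Uqcrh, Uqcrc1, Uqcr10 and Uqcrfs1, and from complex IV Ndufa4 (-1.43) and Cox7b (-1.25, one of 2). Cox4i1 differed between these comparisons, at -0.14 between the WT populations and -2.78 between the knockout ones. Ndufs3 likewise read 0.21 and 0.29 higher in WT MPPs than in WT GMPs and -2.02 and -1.35 in the knockout. The 7 tissue-restricted isoforms read higher in MPPs in both genotypes as deposited, with medians of 0.17 and 0.41. In WT, Cox8c (0.01), Ndufa4l2 (0.01) and Cox6b2 (0.02) barely differed. Centring on the median shifts the WT and knockout comparisons by -0.06 and -0.11. This turns the sign of those genes in WT and leaves medians of 0.12 and 0.31.

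The medians of several groups depended on how the arrays were put on one scale. As deposited, complexes I, II, III and V had MPP medians between -0.64 and -0.39, and under the 4 other scalings between -0.69 and -0.19. The lower end came from centring on the median, which shifts every difference by -0.05, and the upper end from quantile normalization anew, which removes the narrower range of the Bcl11a-/- MPP array. Of the 21 genes over 2-fold lower in MPPs, 21 remained after median centring, 18 after lowess and 15 when quantile normalized anew. The sign of 14 of the 92 gene differences turned under at least 1 of these scalings, none of them a gene over 2-fold.

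**Figure D4:**
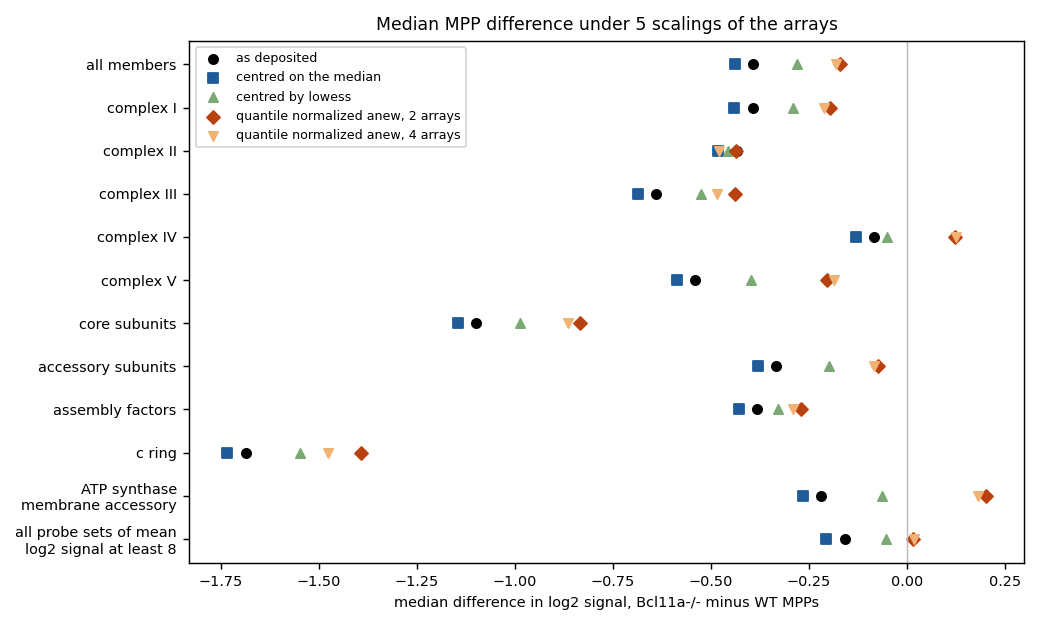
Median difference in log2 signal between Bcl11a-/- and WT MPPs (horizontal axis) for groups of member probe sets and for all probe sets of mean log2 signal at least 8 (rows), as deposited and under 4 other scalings (symbols). The core subunits (-1.15 to -0.84) and the c ring (-1.73 to -1.39) lay left of all other rows under each scaling, while complex IV, the membrane accessory subunits of ATP synthase and all bright probe sets crossed 0 when quantile normalized anew.

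Other genes of mitochondrial respiration were read from lists set up beside the group. Of 26 mitochondrially encoded genes listed, 2 had a probe set with their symbol, COX2 of complex IV and ND3 of complex I, and the others were not analysed here. Their 4 probe sets were all slightly higher in Bcl11a-/- than in WT MPPs, by 0.18 to 0.27 and so far from 2-fold (median 0.24, and 0.20 to 0.49 over the other scalings). COX2 read 12.54, 12.48, 12.66 and 12.84 by one probe set and 12.48, 12.41, 12.57 and 12.85 by the other. The 20 probe sets of electron carriers and other factors outside the name rule had a median of -0.05, with 2 over 2-fold lower. These were Etfb, an electron transfer flavoprotein subunit (11.38, 11.29, 9.28 and 7.15), and Ecsit, a complex I assembly factor (7.95, 7.65, 7.47 and 5.60). Cyc1, the haem subunit of complex III, differed by -0.26. The carrier cytochrome c (Cycs) gave -0.06, -0.68 and 0.18 by its 3 probe sets, and Tmem126b, which assembles complex I, was the highest of the list at 0.84.

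Of 18 probe sets of complex IV assembly factors, Cmc2 (-1.18) was the one over 2-fold lower (list median -0.11). Of 18 for the TCA cycle and its entry, Mdh2, mitochondrial malate dehydrogenase, was over 2-fold lower (12.17, 12.37, 11.78 and 10.55; list median -0.38). Among 37 for mitochondrial carriers and protein import the median was -0.36 and 4 were over 2-fold lower. They were Tomm5 of the outer membrane import pore (10.28, 10.09, 8.96 and 6.47), 2 probe sets of the ADP/ATP carrier Slc25a5 (-2.08 and -1.90) and the matrix chaperone Hspa9 (-1.08). Another probe set of Slc25a5 differed by -0.64. The 20 probe sets of regulators of mitochondrial biogenesis had a median of 0.04 (0.00 after median centring) and none over 2-fold in MPPs. Nrf1 differed by -0.15, Gabpa by -0.36, Yy1 by 0.19 and Tfam by 0.11. Against 2.51% of all probe sets and 9.04% of the bright ones, the shares over 2-fold lower were 5.56% for complex IV assembly and for the TCA cycle, 10.8% for carriers and import, and 2 of 20 for electron carriers and other factors. After median centring, 3 probe sets of the TCA cycle, 5 of carriers and import and 2 of complex IV assembly were over 2-fold lower. Quantile normalized anew, the counts were 0, 3 and 1. None of these lists had a probe set over 2-fold higher in Bcl11a-/- MPPs.

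Set beside other large families of housekeeping genes, the group was not the lowest. Proteasome subunits had a median of -0.83 with 18 of 46 probe sets over 2-fold lower in MPPs, mitochondrial ribosomal proteins -0.39 with 16 of 85, and cytosolic ribosomal proteins -0.22 with 40 of 227, against -0.39 with 27 of 118 here. Beside these stand 2.51% of all probe sets and 9.04% of those of mean log2 signal at least 8. When the MPP arrays were quantile normalized anew, the 3 families had medians of -0.70, -0.28 and -0.08, against -0.17 here. In GMPs the medians of these families were -0.09, -0.11 and 0.02.

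What the members share beyond their names was described from RefSeq. Their genes are short, with a median span of 7502.5 bases against 19194 for the 18553 protein-coding genes on the array. Over the 92 members, the rank correlation of span with the MPP difference was -0.10 and that of mean signal with it -0.16. Over the 76 with a mean signal of at least 8 they were -0.16 and 0.06, the second of opposite sign. They are given as descriptions over genes, which share the arrays and are not replicates. A promoter window of 250 bases before to 50 after the start (RefSeq, GRCm38.p6) was at hand for 77 of the 92. On both strands of it, the letters GCGCATGC, a form of the site of nuclear respiratory factor 1 (NRF1), were present in 12 of the 77 (15.6%), against 3.93% of 17491 protein-coding genes. CCGGAAG, a form of the ETS factor site, was present in 27.3% against 12.9%, AAGATGGC, a form of the YY1 site, in 13.0% against 3.57%, and GGGCGG, the SP1 letters, in 48.1% against 49.2%. None of these 4 strings contains another, though matches may overlap in part. Members with the NRF1 letters had a median MPP difference of -0.57 (3 of 12 over 2-fold lower) and those without -0.41 (15 of 65). For YY1 the medians were -0.44 and -0.43, and for ETS -0.41 and -0.48. For SP1 they were -0.32 with the letters (4 of 37 over 2-fold lower) and -0.60 without (14 of 40). Letters in a window are a description and no evidence of binding.

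As examples, chosen after their values were seen, the 180 bases before the start are given for the member with the lowest MPP value, which holds no NRF1 letters there, and for 4 members that hold them. In order these differ by -3.85, -1.78 (mean of 3 probe sets), -0.81, 0.01 and 0.06 in MPPs. The sequences run 5′ to 3′ on the gene's strand, which is the minus strand for all 5, and capitals mark the NRF1 letters on either strand (GCGCATGC or GCATGCGC, which may overlap). They lie at chr4:123718187-123718366, chr15:102671048-102671227, chr2:36049339-36049518, chr15:82354292-82354471 and chr5:115348959-115349138 of GRCm38.p6.
Ndufs5: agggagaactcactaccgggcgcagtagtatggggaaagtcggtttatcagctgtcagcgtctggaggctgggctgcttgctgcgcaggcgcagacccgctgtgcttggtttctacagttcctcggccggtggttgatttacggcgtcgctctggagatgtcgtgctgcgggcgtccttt
Atp5g2: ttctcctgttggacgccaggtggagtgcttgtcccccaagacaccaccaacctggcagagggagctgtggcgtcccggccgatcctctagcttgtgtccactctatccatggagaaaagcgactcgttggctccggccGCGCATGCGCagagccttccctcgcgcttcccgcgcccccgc
Ndufa8: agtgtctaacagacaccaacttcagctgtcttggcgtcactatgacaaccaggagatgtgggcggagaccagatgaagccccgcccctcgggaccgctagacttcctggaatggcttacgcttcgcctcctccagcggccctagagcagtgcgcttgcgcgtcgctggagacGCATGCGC
Ndufa6: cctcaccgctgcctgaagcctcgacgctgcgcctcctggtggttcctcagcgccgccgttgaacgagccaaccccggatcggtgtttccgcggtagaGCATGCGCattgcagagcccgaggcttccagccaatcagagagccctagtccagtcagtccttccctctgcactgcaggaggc
Cox6a1: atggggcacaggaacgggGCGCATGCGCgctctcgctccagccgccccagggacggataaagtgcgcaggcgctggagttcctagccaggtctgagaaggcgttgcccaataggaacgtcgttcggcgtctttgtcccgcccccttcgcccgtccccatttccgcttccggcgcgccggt
The same palindromic stretch, in which the letters overlap on both strands, stands before Atp5g2, 3.43-fold lower in Bcl11a-/- MPPs by the mean of its probe sets, and before Cox6a1, which differed by 0.06. Ndufa8 and Ndufa6, each with 1 match, differed by -0.81 and 0.01, and the second sign turned to -0.04 after median centring.

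Several members start back to back with another gene on the opposite strand. For 21 members the start of such a neighbour lay within 1000 bases and the neighbour was measured. Of the 5 of these members that were over 2-fold lower in MPPs, none had a neighbour over 2-fold lower, and with 2.51% of all probe sets over 2-fold lower a count of 0 in 5 carries no information. Ndufs3 and Kbtbd4 start 19 bases apart and differed by -1.99 and -0.42 (mean of probe sets), Ndufb5 and the mitochondrial ribosomal gene Mrpl47 by -1.63 and -0.69, Uqcr10 and Zmat5 by -1.36 and -0.71, and Atp5h and Kctd2 by -1.59 and -0.30. For Uqcrh and Lrrc41 the directions were opposite, at -1.13 and 0.70.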

How the data were processed

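Total RNA of sorted, pooled donor-derived GMPs and MPPs was amplified, labelled with biotin and hybridised to 4 one-colour arrays, 1 per condition. The deposited values are log2 signals made by the authors with RMA (probe-level quantile normalization, in ArrayStar), and were used as deposited. They ran from 1.54 to 13.98 on 30177 rows. The 1324 rows whose identifiers precede the annotated run were taken as controls and left out, which leaves 28853. Of these, 5443 had no symbol in the annotation and 1621 had several. The number of arrays limits the precision, and no depth applies.

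The members and all gene lists were chosen with earlier results of these data known. Probe sets were named from GEO's annotation of the array, and all 118 member symbols matched RefSeq. Differences, counts over 2-fold and medians were computed in Python 3.11.15 (pandas 2.3.3, numpy 2.4.6, lowess of statsmodels 0.14.6 with span 0.3, scipy 1.17.1) and the code was tested on simulated data. Genes were named where a probe set was over 2-fold in any of the 4 comparisons, where they were extreme in a complex, or where they are core subunits, and from the other lists where over 2-fold in MPPs. Those named for their role beyond this rule (such as Cyc1, Cycs, Tmem126b, Nrf1, Gabpa, Yy1 and Tfam) or as promoter examples were chosen after their values were seen. The late neutrophil markers named above were high on all arrays (medians 11.3 to 11.6). Alternatives were a signal filter, a floor, 4 other scalings, other thresholds and 1 value per gene.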

Additional observations from a re-analysis of the deposited data

How the results depend on the processing

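With 1 array per condition no replicate could be left out, and the differences over all probe sets had an SD of 0.453 in MPPs and 0.280 in GMPs. No paired analysis was possible because each condition has 1 array and the labels carry no replicate numbers. Of the counts and medians recomputed under the alternatives, 197 kept within 1.5 times (counts) or 0.1 (medians, log2) of the deposited value and 51 did not. None of the called values reversed. The alternatives' own construction sets which values enter, and the cause of each change was not tested.

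When probe sets had to reach 6 on one array of the pair, the MPP medians were -0.56 (complex II) and -0.27 (complex IV) and the GMP median of complex II was -0.095. With a mean of at least 8 they were -0.68 and -0.19 in MPPs, and the members' Bcl11a-/- MPP minus GMP median was -0.70. That median was -0.67 after median centring, which moved all probe sets of that comparison by -0.11, -0.37 after lowess, -0.19 and -0.20 after quantile normalization of the pair and of all 4 arrays, and -0.75 for structural subunits only. After lowess the MPP medians were -0.28 (members), -0.29 (I), -0.53 (III) and -0.40 (V). After quantile normalization of the pair they were -0.17, -0.20, -0.44 and -0.20, with 0.12 for complex IV, and of all 4 arrays -0.18, -0.21, -0.48 and -0.19, with 0.13. Members over 2-fold higher then numbered 1 and 2 in the MPP genotype comparison and 2 and 3 in Bcl11a-/- MPPs against GMPs, and 5 were lower in WT MPPs than GMPs under both (medians -0.11 and -0.10).

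Per gene, the MPP medians were -1.05 (III) and -0.67 (V) with a gene's probe sets averaged, and -0.80 (III), -0.67 (V) and -0.56 (II) with its brightest one, and complex II in GMPs was at -0.095 under both. Structural subunits alone gave -0.70 for complex II in MPPs. At 1.5-fold, 44 members were lower and 3 higher in MPPs, 1 lower and 1 higher in GMPs, 28 lower and 3 higher in WT MPPs against GMPs, and 56 lower and 3 higher in Bcl11a-/- MPPs against GMPs, beside 7.23% and 6.02%, 1.83% and 2.22%, 7.58% and 7.21%, and 11.5% and 12.1% of all probe sets. At 3-fold, 12 were lower in Bcl11a-/- MPPs, 0 in WT MPPs against GMPs and 23 in Bcl11a-/- MPPs against GMPs, beside 0.70%, 0.683% and 2.14%.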
